A study of Homo sapiens with 4 samples.

Results

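Transcripts of the actin cytoskeleton and of the contractile machinery were examined in HaCaT, a spontaneously immortalised human keratinocyte cell line, after knockdown of the m6A demethylase ALKBH5. A list of 41 genes was drawn up by name, from the cytoplasmic actins to the proteins that link filaments to the membrane, and all 41 were found once each among the 58735 genes of the deposited tables. RNA-seq was performed on cells transfected with an ALKBH5 siRNA (siALKBH5, genotype label ALKBH5 knockdown) or with a negative control siRNA (siControl, genotype label WT), with 2 libraries per group. Both groups were grown and transfected in the same way, with a lipid reagent, so the controls carry siRNA and transfection as well. The labels do not say which ALKBH5 siRNA was used, and they do not say whether the duplicates were separate cultures, so the p-values below measure the spread between these libraries, which may be technical.

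Actin exists as monomers and as filaments, and a cell moves by building new filaments at its leading edge and by pulling on older ones with myosin. Branched filaments are started by the Arp2/3 complex, profilin delivers monomers and cofilin cuts old filaments so that their subunits can be used again. In keratinocytes that close a wound, filaments are crosslinked by alpha-actinin and filamin and tensed by non-muscle myosin II under the control of protein kinases. They are also coupled to the matrix at focal adhesions and tied to the membrane by ezrin, radixin and moesin.

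The libraries held between 16017502 and 18837807 counts on genes. Mitochondrial genes took 10.2% of the counts of each siControl library and 9.63% and 9.64% of those of siALKBH5. Levels are given as CPM, counts scaled to a common library size with TMM factors, and groups were compared with edgeR's quasi-likelihood test on the 15075 genes that passed its filter on low counts, with p-values adjusted over all of these genes by the Benjamini-Hochberg method. SE stands for the standard error of the log2 fold change in this fit. A gene is called higher or lower when this adjusted p is under 0.05. ALKBH5 itself was at 93.8 and 87.6 CPM in siControl and at 51.2 and 49.6 CPM in siALKBH5 (log2 fold change -0.85, SE 0.05, adjusted p = 6.45e-15). The 2 libraries of a group differed by more than counting noise, with a chi-square per degree of freedom of 1.74 in siControl and 1.85 in siALKBH5, and each was counted as a sample of its own.

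Actin genes rose more often than they fell after ALKBH5 knockdown. Of the 41 genes, 40 had enough counts to be tested, 23 were higher, 7 were lower and 10 were not called. Over all genes tested, 19.3% were higher, 17.3% were lower and 36.6% were called in either direction. Most actin genes are abundant, and abundant genes are called more often. Of the 28 actin genes with a mean of at least 100 CPM, 19 were higher and 6 were lower, and among all 1824 genes at that level 43.5% were higher, 27% were lower and 70.4% were called. Of the 12 tested actin genes under 100 CPM, 5 were called, or 41.7%. The share over all genes tested, 36.6%, is for any level and includes the abundant genes. The median log2 fold change was 0.14 over the 40 genes and -0.0081 over all genes tested. Fewer cells of a type and less RNA per cell cannot be told apart in such bulk libraries.

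The changes were small for most of these genes. Moesin (MSN), filamin A (FLNA), beta-actin (ACTB) and the kinase LIMK1 were the 4 genes with a log2 fold change above 0.4, a line drawn after the values were seen. The other 19 higher genes lay between 0.10 and 0.35, and the 7 lower genes lay between -0.25 and -0.12. Only MSN also reached a log2 fold change of 1 in size, which 2.92% of all genes tested did together with an adjusted p under 0.05. Both siALKBH5 libraries were above both siControl libraries for 25 of the 40 tested genes and below them for 9, against 32.8% and 33.5% of all genes tested, so that the groups did not overlap for 34 genes, against 66.3% of all genes tested. These shares are for genes of any level and were not taken for abundant genes alone. Summed over all 41 genes, the level was 9188 and 9099 CPM in siControl and 11130 and 11100 CPM in siALKBH5.

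**Figure D1:**
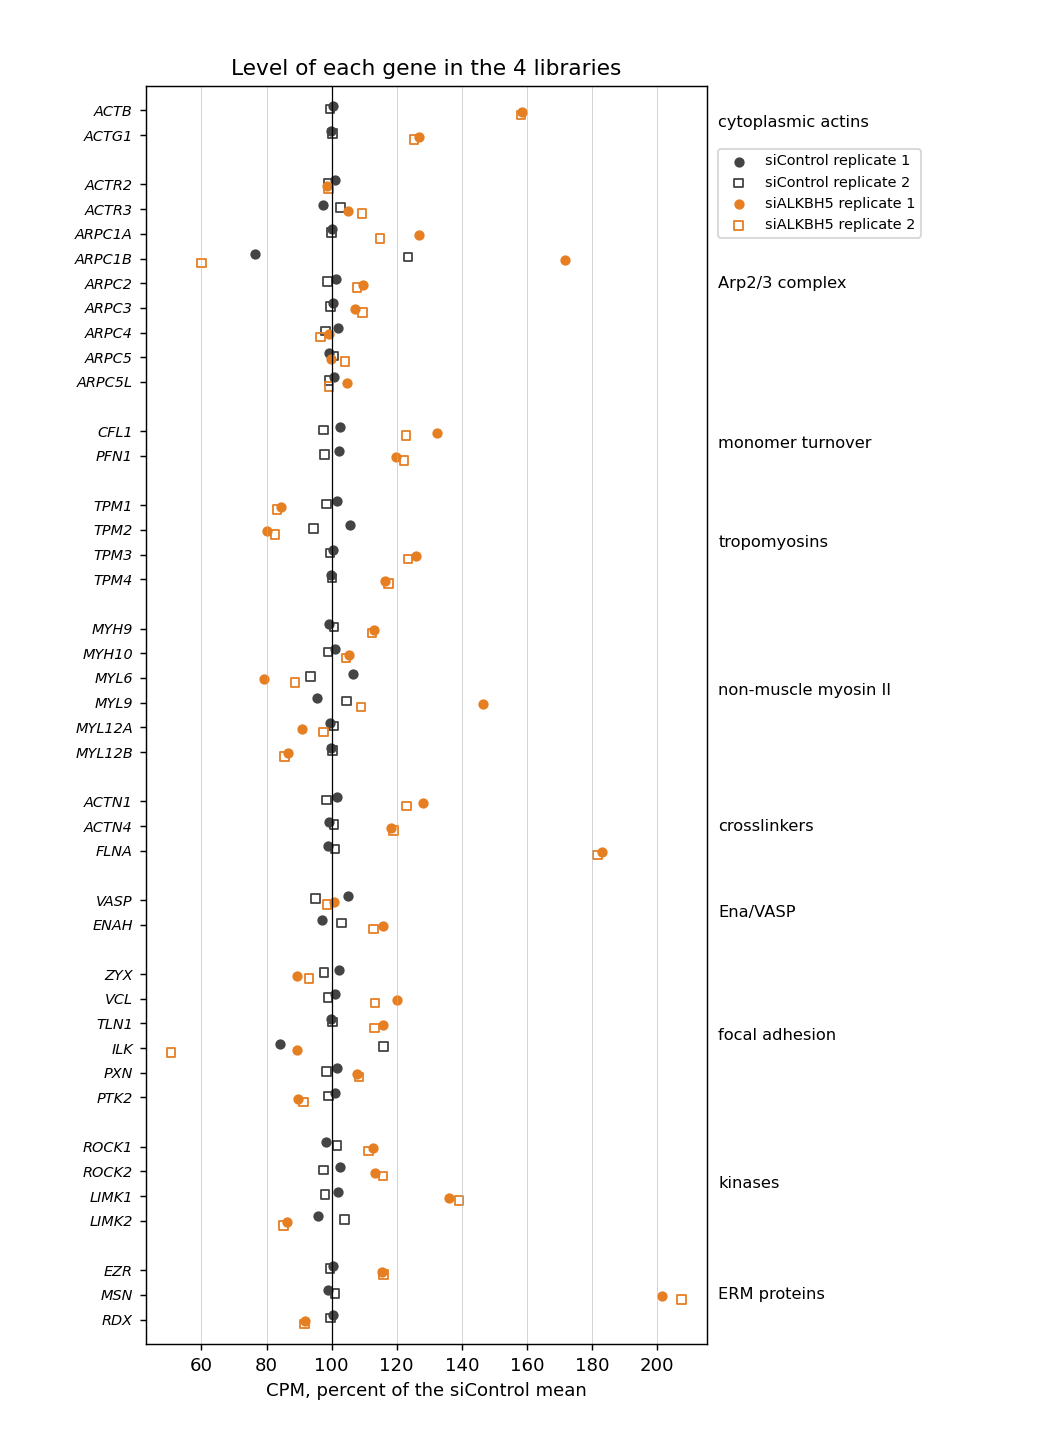
Level of each of the 41 genes in the 4 libraries, as CPM in percent of the mean of the siControl libraries (x axis), with 1 row per gene grouped by role. Black symbols are siControl, orange symbols siALKBH5, filled circles replicate 1 and open squares replicate 2. MSN lies farthest to the right, and ARPC1B and ILK, which have few counts, are widely scattered.

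**Figure D2:**
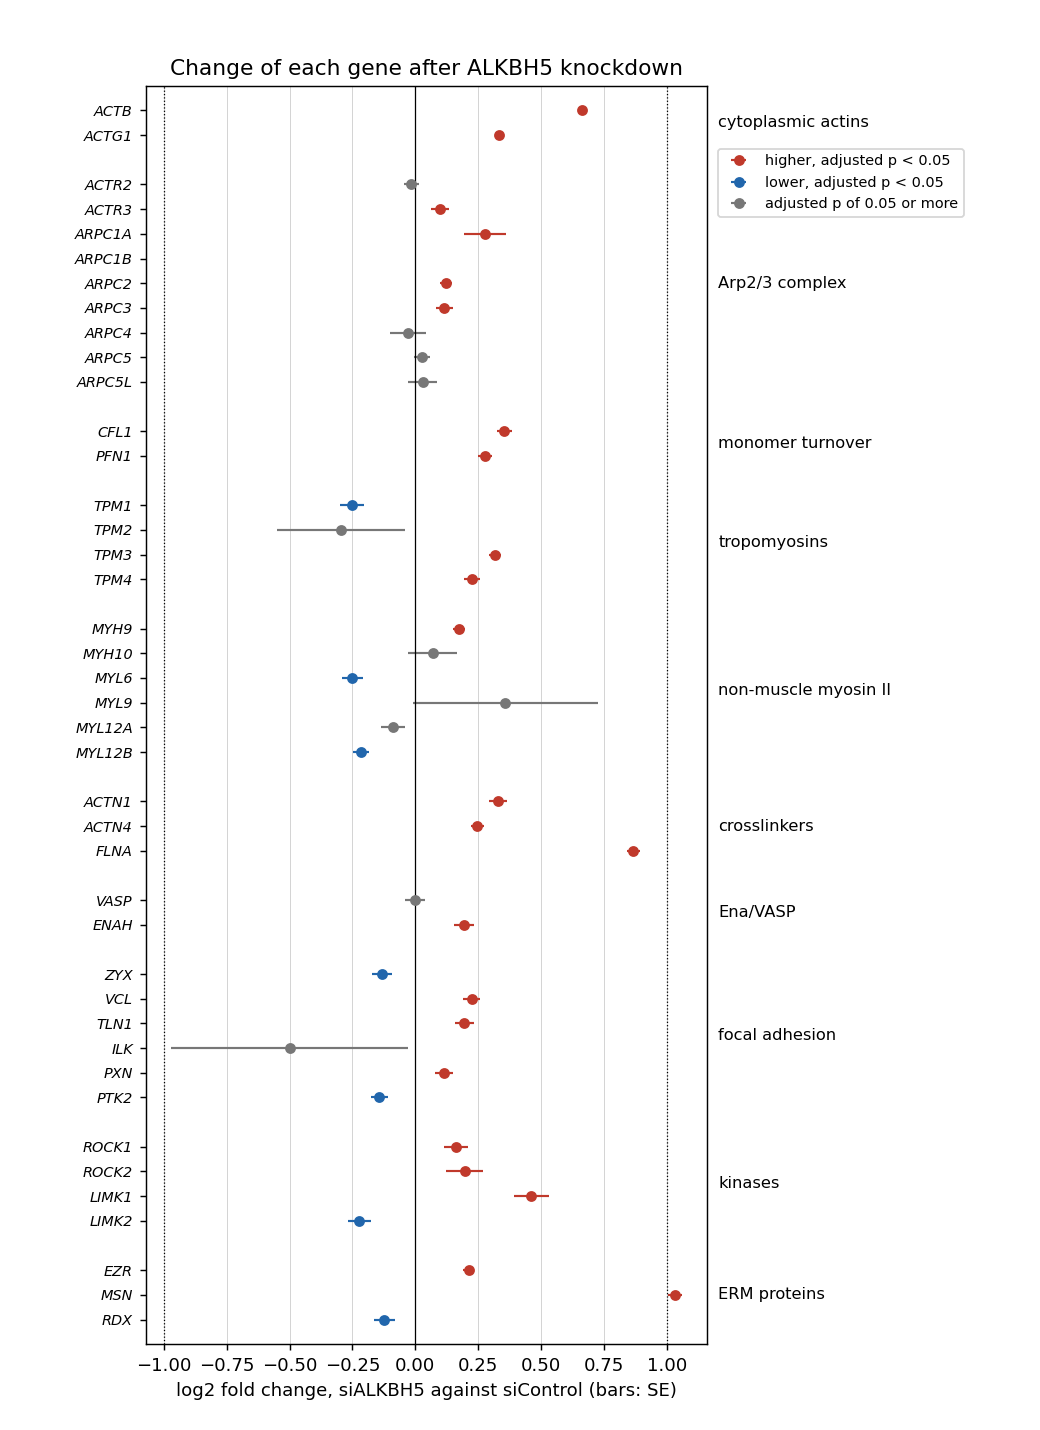
Log2 fold change of siALKBH5 against siControl (x axis) for the 40 tested genes, with bars for the standard error of the edgeR fit and dotted lines at a log2 fold change of 1 in size. Red genes were higher and blue genes lower at an adjusted p under 0.05, and grey genes were not called. ARPC1B was not tested.

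Beta-actin and gamma-actin, the cytoplasmic actins from which filaments are built, were both higher. ACTB (ENSG00000075624, chromosome 7 of GRCh38 from 5527147 to 5563784, minus strand) was at 988.5 and 977.7 CPM in siControl and at 1559 and 1555 CPM in siALKBH5. Both siALKBH5 libraries were far above both siControl libraries, and the duplicates lay close together. The log2 fold change of ACTB was 0.66 (SE 0.02, adjusted p = 2e-24), so that its level was 158% of the control. ACTG1 (ENSG00000184009, chromosome 17 from 81509971 to 81523847, minus strand) was at 1119 and 1125 CPM in siControl and at 1423 and 1406 CPM in siALKBH5, without overlap of the groups. Its log2 fold change was 0.33 (SE 0.02, adjusted p = 3.18e-16). Per kilobase of gene length, ACTG1 made up 57.1% and 57.5% of the cytoplasmic actin transcripts in siControl and 51.8% and 51.5% in siALKBH5. The actins have many processed pseudogenes, to which reads could be lost. The 10 named pseudogenes of ACTB together held at most 0.153% of the counts of ACTB in any library, and the 20 of ACTG1 at most 0.255% of those of ACTG1. How reads that fit several places were counted is not given in the sources used here. These low counts therefore cannot show how many reads were lost. Next to the actins, GAPDH, which like ACTB is a common reference gene, was at 1811 and 1818 CPM in siControl and at 2508 and 2531 CPM in siALKBH5 (log2 fold change 0.47, adjusted p = 6.92e-22).

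Serum response factor (SRF) is known to be active when actin monomers are scarce. Its DNA site, the CArG box, is a short promoter element known from some actin genes. RefSeq promoters on GRCh38.p14, from 250 bases before to 50 bases after a RefSeq start site, of which a gene can have several, were searched for it. The pattern is the same on either strand, so that a match counts for both. Promoters were found for 37 of the 41 genes, and ACTB, ARPC1B, MYL9 and PTK2 had no entry. The box was in 5 of the 57 promoters of these genes, or 8.77%, and in 1.29% of all 35116 promoters of the table. Among the promoters of genes tested the share was 1.06%. For the further actin genes described at the end, it was in 10 of 136 promoters, or 7.35%. That list includes SRF and genes chosen as its actin-linked targets, so its share is not an independent comparison. The 41 genes were also chosen by name with earlier results of these data known, so their share is not independent either. The stretch around the box is shown for each of the 5 promoters of the 41 genes that hold it. All 5 belong to genes that were higher, as do 36 of the 57 promoters searched. The capitals mark the box, and each stretch is written on the strand of its gene.
ACTG1 (chr17:81512874-81512903, minus strand): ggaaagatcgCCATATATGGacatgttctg
ACTN1 (chr14:68977718-68977747, minus strand): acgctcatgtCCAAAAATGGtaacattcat
FLNA (chrX:154374709-154374738, minus strand): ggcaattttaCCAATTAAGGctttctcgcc
ROCK2 (chr2:11345491-11345520, minus strand): aaatgtacttCCTTAAATGGgtttactggg
TPM4 (chr19:16067355-16067384, plus strand): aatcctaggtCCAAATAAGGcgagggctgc
Counted from the RefSeq start site of its own entry, the box begins 94 bases upstream in ACTG1 and FLNA, 171 in ACTN1, 73 in ROCK2 and 173 in TPM4. These are not the outermost starts for every gene. In the GENCODE 29 spans to which the counts belong, the stretches of ACTG1, ACTN1, ROCK2 and TPM4 lie inside the gene, and that of FLNA lies just outside it. The box was in none of the 9 promoters of lower genes and in none of the 12 promoters of genes that were not called, numbers too small to compare with the 5 of 36 promoters of higher genes. SRF binding was not measured. The transcript of SRF itself was at 61.1 and 59.3 CPM in siControl and at 52.0 and 50.9 CPM in siALKBH5 (log2 fold change -0.22, adjusted p = 0.002). Its coactivators MRTFA and MRTFB, which sense free actin monomers, had log2 fold changes of -0.03 (adjusted p = 0.758) and 0.03 (adjusted p = 0.688).

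Both genes of monomer turnover were higher. Cofilin (CFL1, ENSG00000172757, chromosome 11 from 65823022 to 65862026, minus strand), which severs filaments, was at 368.4 and 350.2 CPM in siControl and at 475.5 and 441.4 CPM in siALKBH5. Profilin (PFN1), which loads monomers for assembly, was at 321.7 and 307.5 CPM and at 377 and 384.5 CPM. Neither gene overlapped between the groups. CFL1 had a log2 fold change of 0.35 (SE 0.03, adjusted p = 1.27e-11) and PFN1 one of 0.28 (SE 0.03, adjusted p = 7.55e-10). For CFL1, 19% of the exonic bases are shared with the genes MUS81 and SNX32 on the other strand.

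The Arp2/3 complex, which nucleates branched filaments, changed little. Of its 9 subunit genes, 8 were tested, 4 were higher, none was lower, and the median log2 fold change was 0.06. ARPC2, a core subunit of the complex, was at 450.1 and 439.3 CPM in siControl and at 488.2 and 479.3 CPM in siALKBH5. That is a rise of 0.12 on the log2 scale (SE 0.02, adjusted p = 0.000164). ARPC3 rose by 0.12 (adjusted p = 0.00502) and the actin-related protein ACTR3 by 0.10 (adjusted p = 0.0291). The other actin-related subunit, ACTR2, stood at 239 and 233.9 CPM in siControl and at 233.5 and 234.3 CPM in siALKBH5. Its groups overlapped, with a log2 fold change of -0.02 (SE 0.03, adjusted p = 0.733). ARPC4, ARPC5 and ARPC5L had log2 fold changes between -0.03 and 0.03 and were not called, and the groups overlapped for each of them. Other genes share 28.3% of the exonic bases of ARPC4, namely ARPC4-TTLL3 on the same strand and TADA3 on the other. The count of ARPC4 is therefore uncertain. Per length, ARPC5L made up between 39.2% and 41.5% of the transcripts of the pair ARPC5 and ARPC5L in the 4 libraries.

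ARPC1A (ENSG00000241685, chromosome 7 from 99325910 to 99366262, plus strand), a WD-repeat subunit, showed the largest change in the complex, from 23.96 and 23.95 CPM to 30.4 and 27.5 CPM (log2 fold change 0.28, SE 0.08, adjusted p = 0.00817). Its alternative form, ARPC1B, was counted 5 and 9 times in siControl and 13 and 4 times in siALKBH5 and was not tested. These genes lie next to each other, and a protein-coding gene of GENCODE 29 on the same strand, AC004922.1, covers 58.4% of the exonic bases of ARPC1A and 32.4% of those of ARPC1B. AC004922.1 itself held at most 3 counts in a library. How reads in shared exons were counted is not given in the sources used here, and its part in these levels was not tested. The low level of ARPC1B, and the share of the form ARPC1A, are therefore uncertain. Some of these calls were not firm. ACTR3 was not called without siControl replicate 1 or without siALKBH5 replicate 2, where its log2 fold change was 0.064 and 0.073, nor with library size only or with DESeq2. ARPC1A was not called without siALKBH5 replicate 1 (0.20) or with DESeq2.

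The tropomyosins, rod-like proteins that lie along filaments and decide which other proteins can bind, moved in opposite directions. TPM3 (ENSG00000143549, chromosome 1 from 154155304 to 154194648, minus strand), the most abundant of them per length, was at 398.1 and 393.9 CPM in siControl and at 498.1 and 489 CPM in siALKBH5. TPM4 was at 206.5 and 207.1 CPM and at 240.7 and 243.1 CPM, and TPM1 at 88.1 and 85.4 CPM and at 73.4 and 72.1 CPM. Thus both siALKBH5 libraries were above both siControl libraries for TPM3 and TPM4 and below them for TPM1. The log2 fold changes were 0.32 for TPM3 (SE 0.02, adjusted p = 1.58e-12), 0.23 for TPM4 (adjusted p = 3.72e-07) and -0.25 for TPM1 (SE 0.05, adjusted p = 5.84e-05). TPM2, counted 50 times in each siControl library and 44 and 40 times in siALKBH5, had a log2 fold change of -0.29 and was not called (SE 0.25, adjusted p = 0.395). Per kilobase of gene length, TPM1 made up 8.64% and 8.45% of the tropomyosin transcripts in siControl and 6.08% and 6.04% in siALKBH5, while TPM3 made up 59.9% in each control and 63.4% and 62.8% after knockdown. The tropomyosin genes each give several isoforms, which gene counts do not tell apart. Of the exonic bases of TPM1, 21.4% are shared with antisense genes, which held at most 2 counts each.

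Non-muscle myosin II, the motor that tenses filaments, is made of heavy chains, essential light chains and regulatory light chains, and these did not move together. The heavy chain MYH9 was higher, from 601.7 and 610 CPM in siControl to 685.5 and 681.3 CPM in siALKBH5 (log2 fold change 0.17, SE 0.02, adjusted p = 9.46e-08). The essential light chain MYL6 (ENSG00000092841, chromosome 12 from 56158161 to 56163496, plus strand) was lower, from 333.1 and 292.1 CPM to 247.8 and 277.6 CPM. Its duplicates were farther apart than those of MYH9. The log2 fold change of MYL6 was -0.25 (SE 0.04, adjusted p = 1.17e-05). Between the libraries numbered 1 the difference was -0.43 on the log2 scale, and between those numbered 2 it was -0.07. Without siControl replicate 1 the log2 fold change of MYL6 was -0.15, and with DESeq2 the gene was not called. MYL12B, a regulatory light chain whose phosphorylation switches the motor on, was at 228 and 229 CPM in siControl and at 197.8 and 195.5 CPM in siALKBH5, again lower (log2 fold change -0.22, SE 0.03, adjusted p = 1.15e-06). Its close copy MYL12A, whose gene is the neighbour on chromosome 18, had a log2 fold change of -0.09 and was not called (SE 0.05, adjusted p = 0.167), although its siALKBH5 libraries, at 72.01 and 77.1 CPM, were both below its siControl libraries, at 78.7 and 79.6 CPM. Reads of such similar genes can be divided between them, so the difference between MYL12A and MYL12B is uncertain.

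The other myosin genes of the list were scarce. MYH10, another heavy chain, was at 18 and 17.6 CPM in siControl and at 18.7 and 18.6 CPM in siALKBH5. It was not called (log2 fold change 0.07, SE 0.10, adjusted p = 0.63). Per length it made up between 2.66% and 2.90% of the transcripts of MYH9 and MYH10. A further heavy chain gene, MYH14, is not among the 41 genes and is left out of this share. MYH14 was at 400.6 and 384.8 CPM in siControl and at 427.9 and 417.9 CPM in siALKBH5 (log2 fold change 0.11, adjusted p = 0.00142). In mean CPM per kilobase in siControl, MYH14 stood at 37.8, MYH9 at 67.2 and MYH10 at 1.98. MYL9, a regulatory light chain that is abundant in smooth muscle, was counted 18 and 22 times in siControl and 32 and 21 times in siALKBH5 (log2 fold change 0.36, SE 0.37, adjusted p = 0.486). At this depth a change of that size was not resolved for MYL9.

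Proteins that crosslink filaments rose together, and all 3 genes were called. FLNA (ENSG00000196924, chromosome X from 154348524 to 154374638, minus strand), which joins filaments into a flexible net and binds integrins, was at 300.1 and 306.2 CPM in siControl and at 554.7 and 550.7 CPM in siALKBH5. Its level was 182% of the control, with duplicates that differed far less than the groups. FLNA had a log2 fold change of 0.87 (SE 0.03, adjusted p = 6.82e-24), which ranked 471 of 15075 from the highest. The alpha-actinins, which bundle filaments, changed less. ACTN1 was at 158.9 and 154 CPM in siControl and at 200.3 and 192.4 CPM in siALKBH5 (log2 fold change 0.33, adjusted p = 2.5e-09). ACTN4, the more abundant form per length, was at 411.1 and 417.5 CPM and at 490.3 and 493.2 CPM (log2 fold change 0.25, adjusted p = 4.73e-10). Per length, ACTN1 made up 18.2% and 17.5% of the alpha-actinin transcripts in siControl and 19% and 18.3% in siALKBH5, so that its share overlapped between the groups.

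Of the Ena/VASP proteins, which keep growing filament ends free of caps, ENAH (ENSG00000154380, chromosome 1 from 225486835 to 225653142, minus strand) was higher and VASP was not called. ENAH was at 115.4 and 122.8 CPM in siControl and at 137.9 and 134.5 CPM in siALKBH5 (log2 fold change 0.19, SE 0.04, adjusted p = 0.000239). VASP was at 157.6 and 142.8 CPM and at 151.5 and 148.1 CPM. Its siALKBH5 libraries lay between its siControl libraries, and the log2 fold change was 0.00 (SE 0.04, adjusted p = 0.979).

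Genes of focal adhesions, where filaments are anchored to integrins, divided into 3 that were higher, 2 that were lower and 1 that was not called. Vinculin (VCL, ENSG00000035403, chromosome 10 from 73995193 to 74121363, plus strand), which strengthens an adhesion under tension, was at 173 and 169.4 CPM in siControl and at 205.5 and 194 CPM in siALKBH5. Talin (TLN1), which binds and activates integrins, was at 129.1 and 129.9 CPM and at 149.9 and 146.5 CPM. The scaffold paxillin (PXN) was at 153.6 and 148.7 CPM and at 163 and 163.9 CPM. For each of these genes both siALKBH5 libraries were above both siControl libraries, and the log2 fold changes were 0.22 for VCL (SE 0.03, adjusted p = 3.8e-06), 0.19 for TLN1 (adjusted p = 8.54e-05) and 0.11 for PXN (adjusted p = 0.0121). The call of PXN was lost without siControl replicate 2 (0.089) and with DESeq2.

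Zyxin (ZYX), which moves to filaments under strain and helps to repair them, was lower, from 140.2 and 134.1 CPM in siControl to 122.6 and 127.6 CPM in siALKBH5 (log2 fold change -0.13, adjusted p = 0.00781). Focal adhesion kinase (PTK2), which signals from adhesions and drives their turnover, was lower too, from 186.6 and 183 CPM to 165.8 and 168.7 CPM (log2 fold change -0.14, adjusted p = 0.000995). The call of ZYX was lost without siControl replicate 1 (-0.099), without siALKBH5 replicate 1 (-0.10) and with DESeq2, whereas that of PTK2 was kept in all of these. Integrin-linked kinase (ILK), an adaptor between integrins and filaments, was counted 13 and 20 times in siControl and 16 and 8 times in siALKBH5 (log2 fold change -0.50, SE 0.47, adjusted p = 0.441). Other genes share 78.5% of the exonic bases of ILK, most of all TAF10 on the other strand with 68.1%, so that its count is uncertain.

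The kinases of contraction and cofilin control were all called, but in both directions. ROCK1 and ROCK2, kinases that raise myosin activity, rose by 0.16 (adjusted p = 0.00693) and 0.20 (adjusted p = 0.0368) on the log2 scale. ROCK1 was at 71.7 and 74.0 CPM in siControl and at 82.1 and 81.1 CPM in siALKBH5, and ROCK2 at 30.5 and 29.01 CPM and at 33.7 and 34.5 CPM. The LIM kinases, which phosphorylate cofilin and so switch it off, moved apart. LIMK1 (ENSG00000106683, chromosome 7 from 74082933 to 74122525, plus strand) was at 32.3 and 31.0 CPM in siControl and at 43.1 and 44.0 CPM in siALKBH5. LIMK2 was at 104.6 and 113.3 CPM and at 94.1 and 92.9 CPM. Thus the groups did not overlap for either gene, with log2 fold changes of 0.46 for LIMK1 (SE 0.07, adjusted p = 2.12e-06) and -0.22 for LIMK2 (SE 0.04, adjusted p = 0.00015). Per length, LIMK1 made up 21.6% and 19.6% of the LIM kinase transcripts in siControl and 29% and 29.7% in siALKBH5. ROCK2 was not called when any of the 4 libraries was left out (0.16 to 0.23), with library size only, without the filter or with DESeq2, and ROCK1 was not called without siControl replicate 1 (0.14) or with DESeq2.

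Ezrin, radixin and moesin, which tie cortical filaments to membrane proteins, did not move together. MSN (ENSG00000147065, chromosome X from 65588377 to 65741931, plus strand) was at 250.4 and 256 CPM in siControl and at 510.5 and 525.6 CPM in siALKBH5. Its level was 205% of the control and the groups were far apart. The log2 fold change of MSN was 1.03 (SE 0.03, adjusted p = 2.67e-25), which ranked 290 of 15075 from the highest, and it stayed between 1.01 and 1.06 when single libraries were left out. EZR, the most abundant of these genes per length, rose from 506.2 and 502 CPM to 582.8 and 584.6 CPM (log2 fold change 0.21, SE 0.02, adjusted p = 3.99e-09). RDX was lower, from 113.6 and 112.8 CPM to 104.1 and 103.8 CPM (log2 fold change -0.12, SE 0.04, adjusted p = 0.0178). The call of RDX was lost when any of the 4 libraries was left out (-0.13 to -0.11) and with DESeq2. Per length, MSN made up 20.3% and 20.8% of the transcripts of this family in siControl and 31.4% and 32% in siALKBH5, and RDX 6.45% and 6.41% in siControl and 4.49% and 4.42% in siALKBH5.

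**Figure D3:**
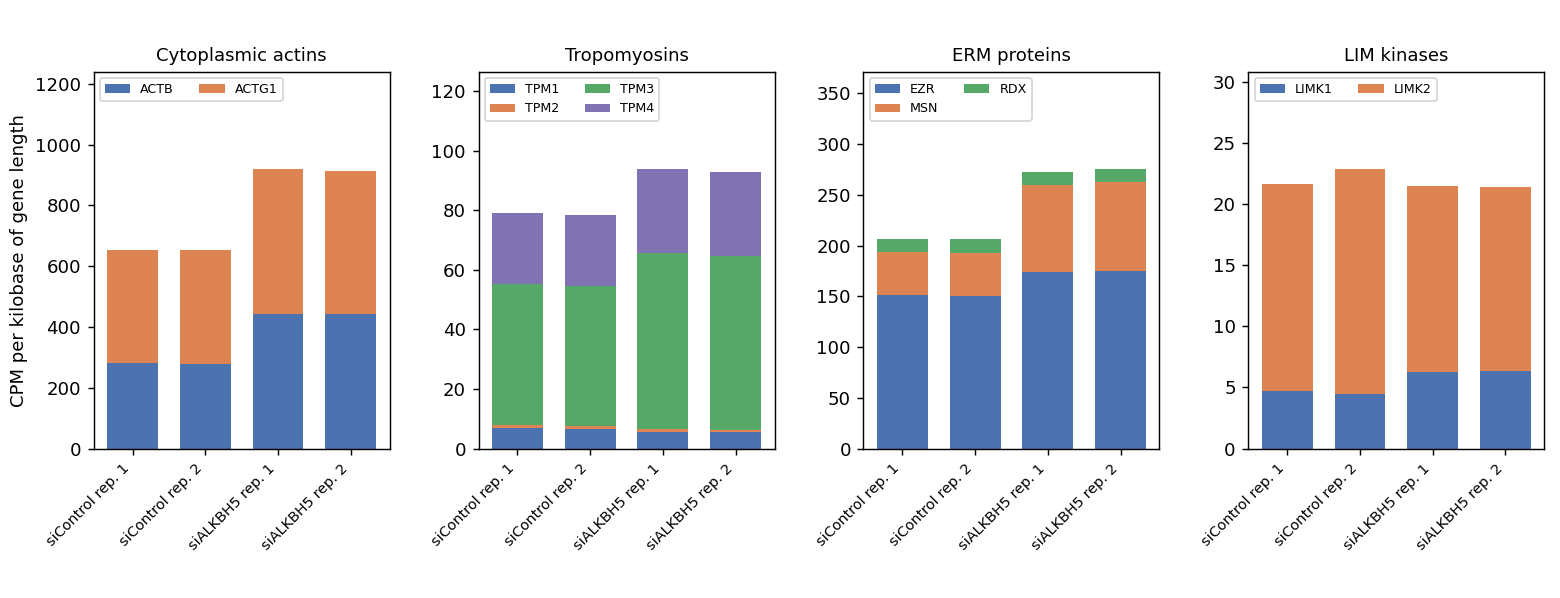
Level of the members of 4 families in each library, as CPM per kilobase of gene length (y axis, from 0), stacked by gene, with 1 bar per library. The share of MSN among the ERM proteins and of LIMK1 among the LIM kinases was larger in both siALKBH5 libraries, and the share of TPM1 among the tropomyosins was smaller.

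Levels between genes can be compared only per length. The length used here and for the shares above counts all exonic bases of a gene over all its isoforms. It can be longer than the transcripts present, so ranks and shares between genes are approximate. In siControl the most abundant transcripts, in mean CPM per kilobase, were ACTG1 at 375, ACTB at 279, PFN1 at 158, EZR at 151 and MYL12B at 118. In siALKBH5 the same genes stood at 472.5, 442.5, 191.6, 174.7 and 101.8, and MSN went from 42.4 to 86.8 and FLNA from 28.6 to 52.2. ACTN4, MYL6, ARPC2 and MYH9 lay together in siControl, between 67.2 and 67.9, and were not separated by the spread of their libraries. At the low end were ARPC1B at 0.102, ILK at 0.275 and MYL9 at 0.415.

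**Figure D4:**
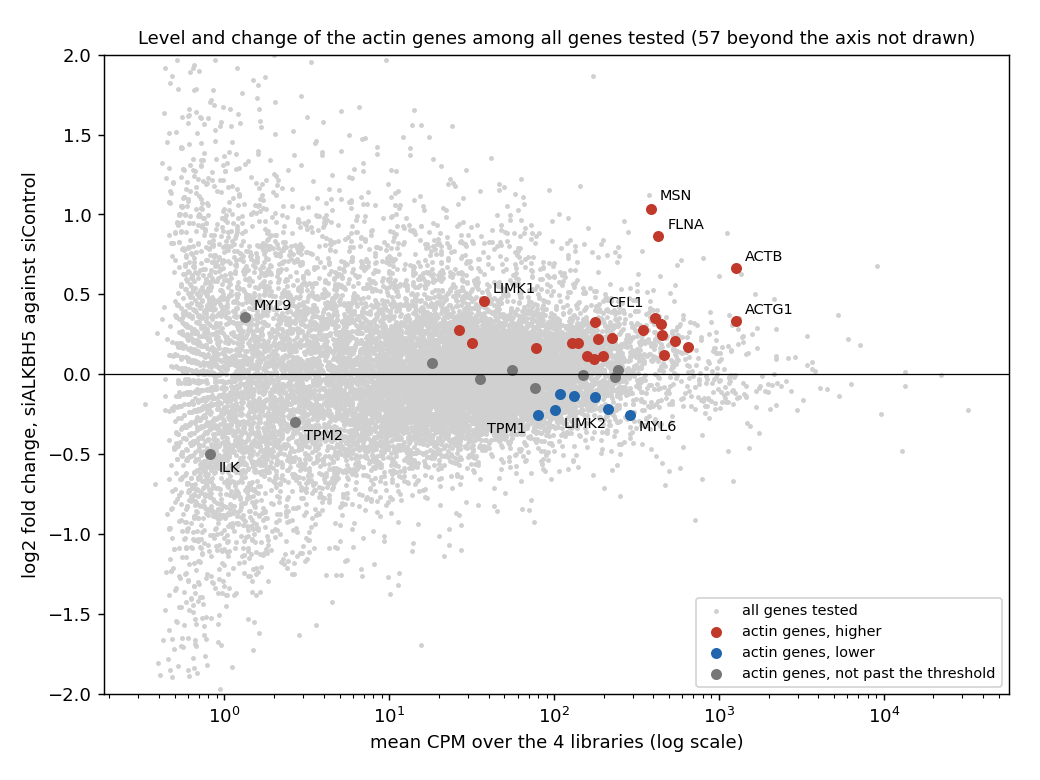
Mean CPM over the 4 libraries (x axis, log scale) against the log2 fold change of siALKBH5 against siControl (y axis) for all 15075 genes tested in light grey, with 57 genes beyond the y axis not drawn. The actin genes are drawn in red where higher, in blue where lower and in dark grey where not called. MSN is the highest of the actin genes, followed by FLNA and ACTB.

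Beyond these 41 genes, 84 other genes of the actin cytoskeleton were listed by role, and 81 of them were tested. Of these, 31 were higher, 18 were lower and 32 were not called, with a median log2 fold change of 0.04. Over all genes tested, 19.3% were higher and 17.3% were lower. Many genes of this list are abundant too, and among all genes with a mean of at least 100 CPM 43.5% were higher and 27% were lower. Formins, which build unbranched filaments, included 4 higher genes and 1 lower gene among 8 tested. Among the genes of capping, severing and monomer binding, 9 of 18 were higher and 5 lower. Among the adhesion partners, 1 of 12 was higher and 2 were lower.

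The highest of the called genes with a mean of at least 5 CPM were DIAPH3, MYLK, CIT, ANLN and PAK1. DIAPH3, a formin, was at 9.12 and 10.1 CPM in siControl and at 17.5 and 18.5 CPM in siALKBH5 (log2 fold change 0.90, adjusted p = 1.67e-07). CIT, a kinase of the cleavage furrow, was at 33.3 and 34.4 CPM and at 62.9 and 56.9 CPM (0.83, adjusted p = 3.02e-12), and ANLN, which bundles filaments there, at 139.8 and 136.6 CPM and at 228.2 and 232.1 CPM (0.74, adjusted p = 2.04e-18). CIT and ANLN are known from cell division. MKI67, a marker of cycling cells, moved with them, from 195.1 and 198.6 CPM in siControl to 364.3 and 366.4 CPM in siALKBH5, and its part in these changes was not tested. MYLK, the kinase that activates myosin through its regulatory light chain, was counted 80 and 93 times in siControl and 191 and 131 times in siALKBH5 (0.85, adjusted p = 8.29e-05). PAK1, a kinase that acts downstream of Rac, had a log2 fold change of 0.65 (adjusted p = 7.38e-07).

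At the other end were CFL2, CALD1, RND3, TES and WASL. CFL2, the cofilin best known from muscle, was at 29.2 and 26.6 CPM in siControl and at 18.5 and 21.0 CPM in siALKBH5 (log2 fold change -0.50, adjusted p = 3.28e-05), opposite to CFL1. RND3, a small GTPase that lowers contractility, was at 88.0 and 87.2 CPM and at 66.1 and 69.9 CPM (-0.37, adjusted p = 2.09e-07). TES, a zyxin partner at adhesions, had a log2 fold change of -0.36 (adjusted p = 5.12e-09), WASL, an activator of the Arp2/3 complex, one of -0.32 (adjusted p = 2.63e-06) and CALD1, which restrains myosin, one of -0.39 (adjusted p = 0.04). RHOF, a GTPase of filopodia that was named after its values were seen, was counted 18 and 14 times in siControl and 6 and 6 times in siALKBH5 (-1.44, adjusted p = 0.0364). RHOF was not called when any of the 4 libraries was left out (-1.69 to -1.17), and DESeq2 gave it no adjusted p. CALD1 was not called without siControl replicate 1 (-0.26), without siALKBH5 replicate 2 (-0.23), without the filter or with DESeq2. Other genes share 71% of the exonic bases of RHOF and 59.4% of those of CDC42, which had between 10 and 20 counts.

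**Figure D5:**
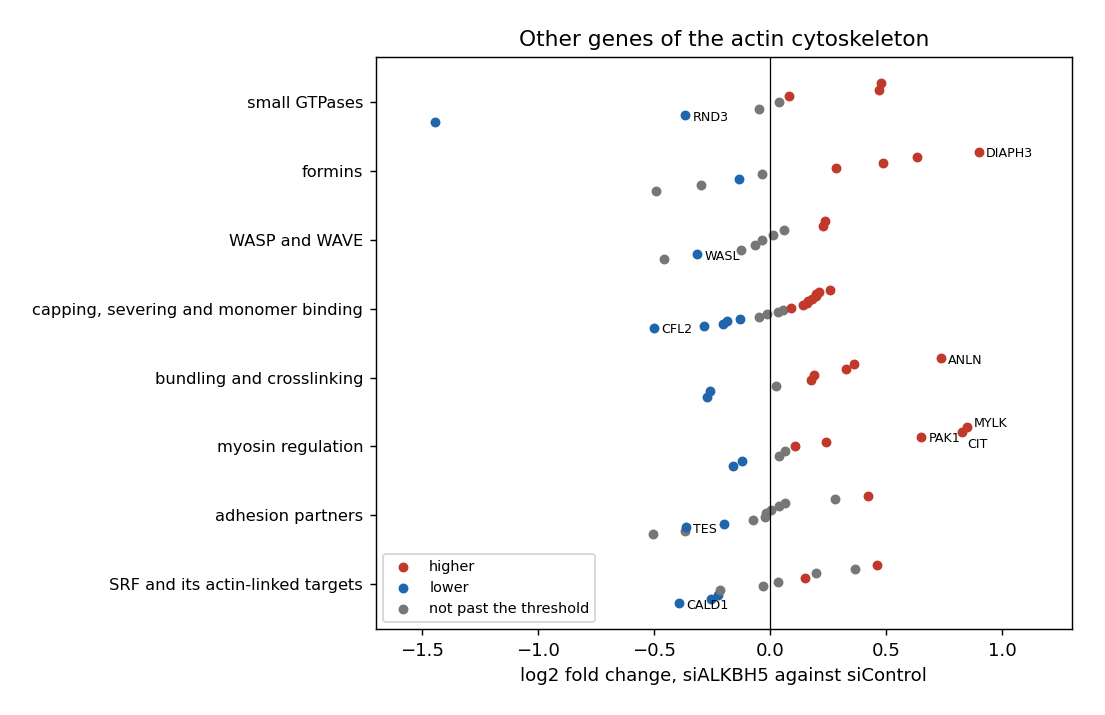
Log2 fold change of siALKBH5 against siControl (x axis) for the 81 tested genes of the further list, 1 point per gene, in rows by role. Red genes were higher, blue genes lower and grey genes not called at an adjusted p of 0.05, and the named genes are the 5 highest and 5 lowest called genes with a mean of at least 5 CPM. The unlabelled point farthest to the left is RHOF.

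Markers of other cells that are rich in actin were low, and several were not detected. Of 10 muscle and smooth muscle genes, DES, CNN1, ACTG2 and MYL1 had 0 counts in all 4 libraries, and the summed level of the list was 11.8 and 11.5 CPM in siControl and 14.9 and 16.7 CPM in siALKBH5. Most of it came from SMTN, an actin-binding protein of smooth muscle, at 8.32 and 8.45 CPM in siControl and 12.1 and 12.8 CPM in siALKBH5. SMTN was higher (log2 fold change 0.57, SE 0.13, adjusted p = 0.00074), as most called actin genes were. Of 7 fibroblast genes, COL1A2, PDGFRA and PDGFRB had 0 counts, and the list summed to 21.9 and 22.8 CPM in siControl and 18.7 and 19.1 CPM in siALKBH5. Most of this sum was the collagen gene COL1A1, at 16.6 and 17.2 CPM in siControl and 16.6 and 16.2 CPM in siALKBH5, which was not called (log2 fold change -0.04, adjusted p = 0.79). The matrix proteoglycans DCN and LUM were lower, with 52 and 71 counts of DCN in siControl against 24 and 29 in siALKBH5 (-1.25, adjusted p = 0.000496) and 33 and 31 counts of LUM against 15 and 16 (-1.08, adjusted p = 0.0209). LUM was not called without siControl replicate 1 (-0.95), without siALKBH5 replicate 1 (-0.94), without siALKBH5 replicate 2 (-1.22) or with DESeq2. All 7 keratinocyte genes were well expressed, and their summed level moved with the knockdown, from 17320 and 16900 CPM to 22860 and 22940 CPM, mostly through KRT5 (log2 fold change 0.68, adjusted p = 1.45e-27). Of these keratinocyte genes, 4 were higher and 3 were lower. The part of the changes of any of these markers in those of the actin genes was not tested.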

How the data were processed

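Poly-A RNA of HaCaT cells was sequenced on a NovaSeq platform, with 2 siControl and 2 siALKBH5 libraries. The submitters' processing notes name HISAT2 2.0.5, featureCounts 1.5.0-p3, DESeq2 1.20.0 and the build hg38. The authors deposited raw counts per gene and FPKM in 2 tables, with 1 siControl and 1 siALKBH5 library each. The authors computed FPKM separately for each table, and these deposited values were not used, and neither were the columns that hold the authors' own log2 fold changes and p-values of 1 library against 1. Strand-specific counting is not given in the sources used here. Gene identifiers and exonic lengths of the 41 genes are those of GENCODE 29, and exonic overlap between genes was computed from it on either strand.

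Groups were compared on the deposited counts by the quasi-likelihood F-test of edgeR 4.0.16 (R 4.3.3), after filterByExpr and TMM scaling, with all 4 libraries, no covariates and Benjamini-Hochberg adjustment over all genes tested. The standard error is the absolute log2 fold change divided by the square root of the quasi-likelihood F. SD over 2 libraries is not printed, because each library's value is. Library totals between 16017502 and 18837807 counts limit the precision of genes with few counts. Alternatives were DESeq2 1.42.0, DESeq2 size factors, library size only, other filters on low counts, the replicate number as a block, an adjusted p under 0.01 and each library left out in turn. With 2 libraries against 2, permutation of the labels cannot give a p under 0.05. The scripts were tested on simulated data. The genes and lists were chosen with earlier results of these data known. Described in full were ACTB, ACTG1 and the called gene of each role with the largest change, and of the further list the 5 highest and the 5 lowest called genes with a mean of at least 5 CPM. Replicate 2 is the library labelled as the replicate.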

Additional observations from a re-analysis of the deposited data

How the results depend on the processing

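The alternatives were run on the counts of higher and lower genes and on the log2 fold change of each gene. In the main test 23 of the actin genes were higher and 7 lower. With DESeq2, 18 were higher and 4 lower, and of the 30 called genes ACTR3, ARPC1A, MYL6, ZYX, PXN, ROCK1, ROCK2 and RDX were not called. The cause was not tested. Over all genes, edgeR called 5523 of 15075 tested and DESeq2 3498 of 13260. None of the 30 changed sign under any alternative run. With each library left out in turn, between 20 and 21 genes were higher and between 5 and 6 lower, 1 gene (MSN) reached a log2 fold change of 1 in size, and of the further list between 27 and 29 genes were higher and between 14 and 18 lower. With 3 libraries, the lone library of a group is assumed to vary like the others. With the replicate block, 23 genes were higher and 7 lower, and the block changed no call of the actin genes. The deviations of same-numbered libraries from their group means correlated at 0.0489, and the number was not treated as a pairing. An adjusted p under 0.01 left 20 higher and 6 lower. The genes named beside the list were run under the same settings after their values were seen, and only RHOF, CALD1 and LUM lost a call. Signs turned only for genes near 0 that were not called. VASP was at 0.0015 with DESeq2, 0.0011 with DESeq2 size factors and 0.0049 without the filter. With each library left out in turn, VASP ranged from -0.074 to 0.072, ACTR2 from -0.032 to 0.0024, ARPC5 from -6e-04 to 0.058 and ARPC5L from -0.0098 to 0.068. The median log2 fold change over all genes lay between -0.03 and -0.0053 among the scalings. Few counts, at most 50 in any library, limit what can be said of ARPC1B, ILK, MYL9 and TPM2. For ARPC1B and ILK, exons shared with other genes also make the counts themselves uncertain.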
